A study of Mus musculus with 8 samples.

Results

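The genes described here encode the main proteins of the basement membrane: the collagen IV chains Col4a1 and Col4a2, the laminin chains Lama4, Lama5, Lamb1, Lamb2 and Lamc1, the nidogens Nid1 and Nid2, and perlecan (Hspg2). They were taken by name from the table of all measured genes, and all 10 were present among its 13687 genes and passed the filter on low values. Their RNA was measured by RNAseq in primary peritoneal mesothelial cells (MCs), the flat epithelium-like cells that line the peritoneal cavity, obtained by trypsin digestion of the parietal peritoneum of WT and Cav-1- mice. The Cav-1- mice, called CAV1-/- here, were of the strain B6.Cg-CAV1tm1mls/J and lack caveolin-1 in every cell type, and the WT mice were their littermates. MCs were grown to confluence in static culture and then left static or mechanically stretched for 24 h. Each of 4 animals gave 1 static and 1 stretched culture, so that the 4 groups (WT static, WT stretch, CAV1-/- static and CAV1-/- stretch) hold 2 cultures each. The animals' ages were not given in the sources used here, and these are cultured cells without the submesothelial tissue.

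A basement membrane is a thin sheet of matrix on which epithelial, mesothelial and endothelial cells rest and which also wraps muscle, fat and nerve cells. Laminins, trimers of 1 alpha, 1 beta and 1 gamma chain, assemble into a network bound to cell surface receptors, and collagen IV, usually a trimer of alpha1 and alpha2 chains, forms a second, covalently crosslinked network. Nidogens bind both networks, and perlecan, a heparan sulphate proteoglycan, attaches to them and holds growth factors. In the peritoneum the mesothelium rests on such a sheet.

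Depth ranged from 9777738 to 21203938 recovered reads per library, and each stretched library was deeper than every static one, so depth and stretch cannot be told apart. Values are TMM-normalized CPM, reads scaled to the library total and its composition, and 3 reads corresponded to 0.146 to 0.308 CPM. This floor covers counting error only, whereas the 95% intervals printed are from the limma fit and rest on the spread between cultures. The scarcest member value rested on 412 reads. The 4 Y-linked genes measured summed to 168 to 208 CPM in every library. Cav1, the targeted gene, was at 247 to 764 CPM in the WT libraries and at 12.8 to 34.5 CPM in the CAV1-/- libraries, in which reads outside the deleted part would still count. Of the mesothelial markers 12 of 13 were measured, and their summed level was 2963 to 3903 CPM in the WT libraries and 854 to 1116 CPM in the CAV1-/- libraries. The summed level of the 12 leukocyte markers was 4821 and 4848 CPM in the static and stretched cultures of CAV1-/- replicate 1, 302 and 333 CPM in those of replicate 2, and 73.3 to 463 CPM in the WT libraries. CAV1-/- replicate 1 therefore stood apart, and the genotype differences of the members are also given without its 2 cultures.

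Collagen IV was the most abundant product among the members. Col4a1 (ENSMUSG00000031502) lies on chromosome 8 of GRCm38 from 11198423 to 11312826 on the minus strand, and Col4a2 (ENSMUSG00000031503) lies head to head with it on the plus strand from 11312805 to 11449287. The annotated starts lie 21 bases apart and the gene models overlap, so the 2 chains of 1 trimer are transcribed away from a shared start region. The 22 bases between and including the RefSeq starts, at chr8:11312805-11312826 of GRCm38.p6 on the plus strand, are shown because these were the 2 members whose levels followed each other most closely. Capitals mark the GC box GGGCGG, the letters bound by the Sp family of factors.
Col4a1 and Col4a2: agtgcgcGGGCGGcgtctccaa
GC boxes in either direction were present in 35.7% of the 32851 promoter windows of 300 bases in the RefSeq table, and the match is a description of the letters only. The window of Col4a1 had a GC content of 74%, a value reached by 4.77% of all windows.

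The RefSeq table held a window for 7 of the 10 members, and those of Lama5 and Nid1 are shown for contrast, since all 4 CAV1-/- values of Lama5 lay below its WT values and Nid1 lay in the opposite direction. The Lama5 stretch is the 250 bases before its start, chr2:180225860-180226109 (minus strand), and the Nid1 stretch the 199 bases of its window that lie before the GENCODE start, chr13:13437352-13437550 (plus strand), both of GRCm38.p6 and 5′ to 3′ on the gene's strand. The RefSeq start of Nid1 lies inside the GENCODE model. GC boxes, GGGCGG or its reverse complement CCGCCC, are in capitals.
Lama5: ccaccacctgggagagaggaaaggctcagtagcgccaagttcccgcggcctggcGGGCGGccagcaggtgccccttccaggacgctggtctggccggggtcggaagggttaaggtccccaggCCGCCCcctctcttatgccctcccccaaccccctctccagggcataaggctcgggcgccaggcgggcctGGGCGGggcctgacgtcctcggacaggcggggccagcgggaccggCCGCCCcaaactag
Nid1: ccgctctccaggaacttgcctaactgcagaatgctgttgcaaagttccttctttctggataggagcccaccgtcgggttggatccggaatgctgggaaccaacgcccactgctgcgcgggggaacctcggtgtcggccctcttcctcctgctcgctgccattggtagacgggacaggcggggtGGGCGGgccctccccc
The Lama5 stretch holds 4 GC boxes and the Nid1 stretch 1. The whole windows of the other members held 5 (Hspg2), 3 (Col4a2), 2 (Lamb1), 1 (Col4a1) and 0 (Lamb2). A link between these counts and the genotype differences was not tested. The Nid1 window also holds 1 match to GGAATG, letters bound by TEAD factors, with both strands searched, and 14.7% of all windows hold at least 1. None of the other 6 member windows had such a match. No match to TGANTCA, the letters bound by AP-1, was found on either strand in the 7 windows, and 7.81% of all windows hold 1 or more.

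The members together took between 0.961% and 1.84% of all reads. By mean CPM over the 8 libraries Col4a1 ranked 10, Col4a2 22, Hspg2 32, Nid1 78, Nid2 189, Lamc1 205 and Lamb1 218 among the 13687 genes, and Lama5 (984), Lama4 (1378) and Lamb2 (1497) were lower. Compared per kb of exon, the mean level was 648 ± 175 CPM per kb (SD over 8 libraries) for Col4a1 and 428 ± 107 for Col4a2. Nid1 (159 ± 65.8), Hspg2 (157 ± 38.8) and Nid2 (118 ± 123) followed on the same scale and did not differ beyond their spread. The spread of Nid2 also took in that of the next 2 genes. Lamc1 (70.6 ± 28.9) and Lamb1 (57.2 ± 7.44) came next, with overlapping spreads. Below them, and apart from Lamb1 beyond the spread, were Lamb2 (21.5 ± 7.37), Lama5 (16.5 ± 12.7) and Lama4 (11.7 ± 4.11), whose spreads overlapped. This order was not the same in every group: in static WT MCs the group mean per kb was 284 for Nid2, above Hspg2 (188) and Nid1 (129), and that of Lama5 (34.8) was above that of Lamb2 (30.8). In stretched CAV1-/- MCs Nid2 was at 13.2 per kb. The range over the 8 libraries was widest for Nid2, 83.8-fold, and next for Lama5, 9.47-fold, while Lamb1 varied by 1.42-fold.

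**Figure D1:**
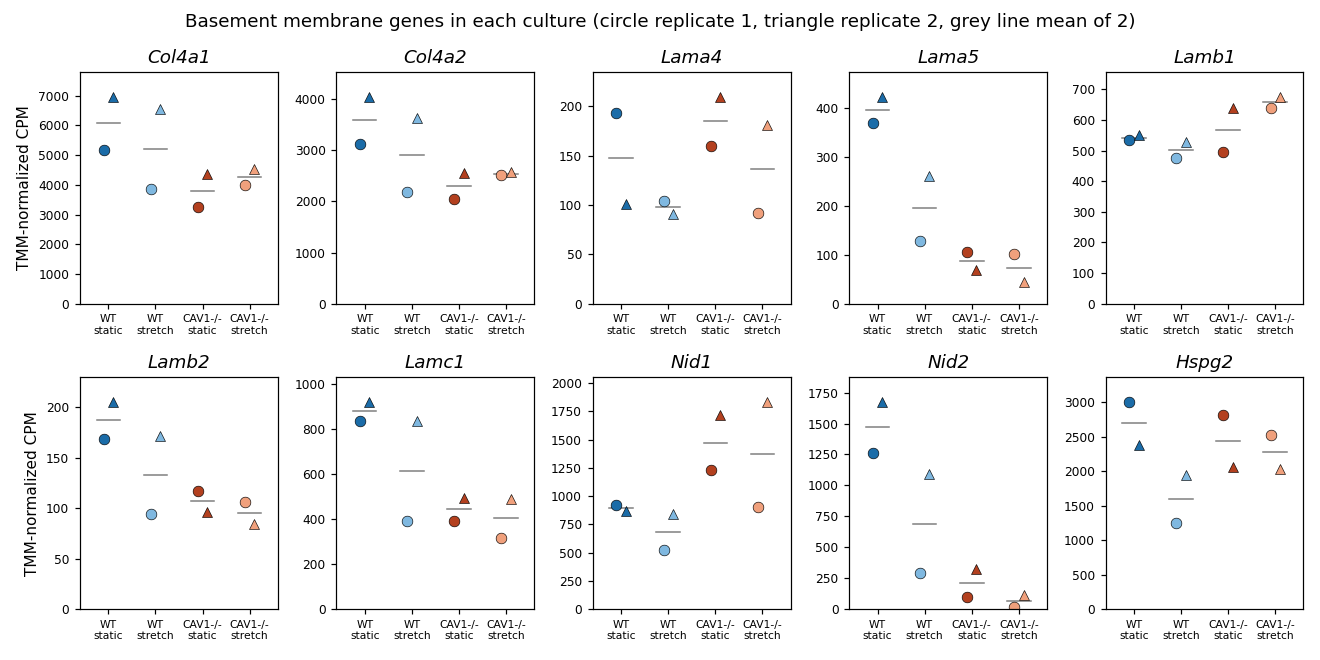
TMM-normalized CPM of each member (y axis, linear from 0, a scale of its own per gene) in the 8 cultures by group (x axis), circles for replicate 1 and triangles for replicate 2, with a grey line at the mean of 2. Nid2 runs from 1675 CPM in a static WT culture to 20.0 CPM in a stretched CAV1-/- culture, and all 4 CAV1-/- values of Lama5 lie below all 4 WT values.

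The static and stretched cultures of the 2 genotypes were compared to ask what the loss of caveolin-1, the scaffold protein of caveolae, did to MCs with and without mechanical load. None of the 10 members passed an adjusted p-value of 0.05 by limma between CAV1-/- and WT in static culture, where 0.0732% of all genes passed, or in stretched culture, where 0.0585% passed, and edgeR called 0 members in any comparison. At an unadjusted p-value under 0.05, 4 members (Lama5, Lamb2, Lamc1 and Nid2, all with lower CAV1-/- means) stood out in static culture against 8.17% of all genes. In stretched culture 3 members did so (Lama5 and Nid2 lower, Lamb1 higher) against 6.26% of all genes. These counts depended on single libraries, being 1 to 5 in static and 1 to 4 in stretched culture when 1 library was left out, and 2 and 3 without both cultures of CAV1-/- replicate 1. The median log2 fold change of the members, CAV1-/- over WT, was -0.65 in static culture, beside -0.01 for all genes tested, and -0.20 on stretch, beside 0.00. With 1 library left out the static median ran from -0.85 to -0.45. The stretched median ran from -0.57 without WT replicate 1 to 0.18 without WT replicate 2, where only 2 members were negative. In these bulk cultures fewer cells of a type and less RNA per cell cannot be told apart.

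Nidogen-2 showed the widest difference between genotypes. Nid2 (ENSMUSG00000021806, chromosome 14 from 19751265 to 19811787, plus strand) held 1262.5 and 1675 CPM in static WT replicates 1 and 2 against 100.1 and 321 CPM in static CAV1-/- replicates 1 and 2. On stretch it was at 289 and 1090 CPM in WT and at 20.0 and 117 CPM in CAV1-/- MCs. Within each condition both CAV1-/- values lay below both WT values, but the static culture of CAV1-/- replicate 2 was above the stretched culture of WT replicate 1. For this and the genes below, the share of all genes that separate this way within a condition was not counted. The log2 fold change, CAV1-/- over WT, was -3.01 (SE 1.03, adjusted p = 0.493 by limma) in static culture and -3.50 (SE 1.03, adjusted p = 0.516) on stretch. By DESeq2 on the recovered reads Nid2 passed on stretch (adjusted p = 0.0116), where 1.78% of all genes with an adjusted p did, and not in static culture (adjusted p = 0.0564). Without both cultures of CAV1-/- replicate 1 the values were -2.17 and -2.26. The 3′ end of Nid2 overlaps Rtraf on the opposite strand, and reads from the 2 genes cannot be told apart there without strand.

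Its paralogue Nid1 lay in the opposite direction. Nid1 (ENSMUSG00000005397, chromosome 13 from 13437551 to 13512269, plus strand) was at 917 and 872 CPM in static WT MCs and at 1230 and 1717 CPM in static CAV1-/- MCs. On stretch the WT cultures held 520 and 842 CPM and the CAV1-/- cultures 907 and 1834 CPM. Both CAV1-/- values were above both WT values in each condition, with replicate 2 the higher of the CAV1-/- cultures. The log2 fold change was 0.70 (SE 0.40, 95% interval -0.27 to 1.67) in static and 0.96 (SE 0.40, -0.01 to 1.93) in stretched culture, and neither passed by limma (adjusted p = 0.773 and 0.807). Without both cultures of CAV1-/- replicate 1 the values were 0.94 and 1.47. The 2 nidogens bind the same partners, laminin gamma1 and collagen IV.

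The ratio of the 2 nidogens set these values side by side within each library. Nid1/Nid2 was 0.727 and 0.521 in static WT MCs, 1.79 and 0.773 in stretched WT MCs, 12.2 and 5.33 in static CAV1-/- MCs and 43.3 and 15.6 in stretched CAV1-/- MCs. Every CAV1-/- ratio was above every WT ratio. Nid2 made up 64.9% and 72.1% of the summed nidogen level per kb in static WT MCs and 9.85% and 20.1% in static CAV1-/- MCs. On stretch the share was 42.8% and 63.5% in WT and 2.87% and 7.86% in CAV1-/- MCs. The log2 ratio differed by 3.71 between genotypes in static culture and by 4.46 on stretch, each with an exact two-sided permutation p of 0.33, the smallest that 2 cultures against 2 can give.

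Among the laminin alpha chains, Lama5, the chain of the laminin-511 and laminin-521 trimers of mature epithelia, was lower in the CAV1-/- cultures. Lama5 (ENSMUSG00000015647, chromosome 2 from 180176373 to 180225859, minus strand) was at 370 and 423 CPM in static WT MCs and at 129 and 261 CPM in stretched WT MCs. The CAV1-/- cultures held 105 and 69.9 CPM when static and 101 and 44.6 CPM when stretched. Lama5 was the only 1 of the 10 members whose 4 CAV1-/- values were all below its 4 WT values, as was the case for 5.88% of all genes, and 0 members had all 4 above, against 3.86%. Its log2 fold change was -2.19 (SE 0.48, adjusted p = 0.218 by limma) in static culture and -1.44 (SE 0.48, adjusted p = 0.646) on stretch. By DESeq2 it passed in static culture (adjusted p = 0.00139), where 2.26% of all genes did, and not on stretch (adjusted p = 0.155). Without both cultures of CAV1-/- replicate 1 the log2 fold changes were -2.48 and -2.02.

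Lama4, the alpha chain typical of vessels, muscle and mesenchyme, did not separate the genotypes. Lama4 (ENSMUSG00000019846, chromosome 10 from 38965515 to 39110188, plus strand) was at 193 and 101 CPM in static WT MCs, 105 and 91.1 CPM in stretched WT MCs, 160 and 210 CPM in static CAV1-/- MCs and 92.2 and 181 CPM in stretched CAV1-/- MCs. The groups overlapped in both conditions, and the log2 fold change was 0.39 (95% interval -0.62 to 1.39) in static and 0.40 (-0.60 to 1.41) in stretched culture. Leaving out 1 library turned both values below 0, to -0.08, and without both cultures of CAV1-/- replicate 1 they were 0.58 and 0.89.

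Per kb, Lama5 made up 67.0% and 81.6% of the sum of both alpha chains in static WT MCs and 56.7% and 75.2% in stretched WT MCs. In CAV1-/- MCs its share was 41.0% and 26.1% when static and 53.8% and 20.7% when stretched. All WT shares were above all CAV1-/- shares, the closest being the stretched cultures of WT replicate 1 and CAV1-/- replicate 1. The log2 ratio Lama4/Lama5 differed by 2.58 between genotypes in static and by 1.84 in stretched culture (exact permutation p = 0.33 for each).

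Of the beta and gamma chains, Lamb2 and Lamc1 had lower means in static CAV1-/- than in static WT MCs, and Lamb1 overlapped between them. Lamb1 (ENSMUSG00000002900, chromosome 12 from 31265234 to 31329644, plus strand), the widely expressed beta chain, was at 535 and 549 CPM in static WT MCs, 477 and 529 CPM in stretched WT MCs, 496 and 637 CPM in static CAV1-/- MCs and 640 and 676 CPM in stretched CAV1-/- MCs. The genotypes overlapped in static culture, and on stretch both CAV1-/- values were higher. The log2 fold change was 0.05 (95% interval -0.33 to 0.44) in static culture and 0.39 (0.00 to 0.77, adjusted p = 0.787 by limma) on stretch, and 0.23 and 0.43 without CAV1-/- replicate 1.

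Lamb2 (ENSMUSG00000052911, chromosome 9 from 108479736 to 108490530, plus strand), the beta chain of the neuromuscular junction, the kidney filter and vessel walls, held 169 and 205 CPM in static WT and 117 and 96.4 CPM in static CAV1-/- MCs. On stretch it was at 94.5 and 172 CPM in WT and at 106 and 84.5 CPM in CAV1-/- MCs. The static groups did not overlap and the stretched groups did, with log2 fold changes of -0.80 (SE 0.30, adjusted p = 0.550 by limma) and -0.42 (SE 0.30, adjusted p = 0.958), or -0.94 and -0.59 without CAV1-/- replicate 1. The ratio Lamb1/Lamb2 was 3.16 and 2.67 in static WT MCs and 4.20 and 6.55 in static CAV1-/- MCs, and on stretch 5.001 and 3.07 against 5.98 and 7.91.

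Lamc1 (ENSMUSG00000026478, chromosome 1 from 153218922 to 153332786, minus strand), the gamma chain shared by most laminins, was at 836 and 919 CPM in static WT MCs and at 393 and 494 CPM in static CAV1-/- MCs. When stretched, WT MCs held 392 and 834 CPM and CAV1-/- MCs 317 and 488 CPM. The static groups were apart, whereas the stretched culture of WT replicate 1 fell between the CAV1-/- values. The log2 fold change was -0.99 (SE 0.39, adjusted p = 0.580 by limma) in static and -0.54 (SE 0.39, adjusted p = 0.959) in stretched culture, and without CAV1-/- replicate 1 they were -0.83 and -0.23. Summed per kb, beta chains stood to the gamma chain at 0.809 and 0.803 in static WT MCs and at 1.46 and 1.34 in static CAV1-/- MCs. On stretch this ratio of levels was 1.34 and 0.809 in WT and 2.14 and 1.39 in CAV1-/- MCs.

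**Figure D2:**
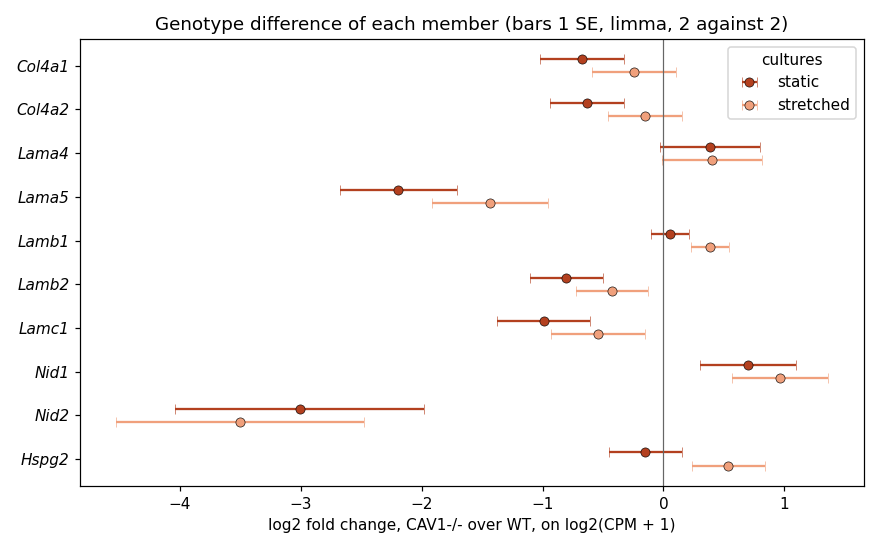
Log2 fold change, CAV1-/- over WT (x axis, on log2(CPM + 1)), of the 10 members (y axis) in static and stretched cultures. Bars are 1 SE from the limma fit, which set 2 cultures against 2 and pooled the spread over all 8 libraries. Nid2 (-3.01 and -3.50) and Lama5 (-2.19 and -1.44) lie farthest to the left and Nid1 (0.70 and 0.96) farthest to the right.

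Both collagen IV chains were lower in static CAV1-/- MCs than in static WT MCs by similar amounts. Col4a1 was at 5176 and 6963 CPM in static WT MCs and at 3264 and 4350 CPM in static CAV1-/- MCs. Col4a2 was at 3117 and 4046 CPM against 2045 and 2561 CPM in the same cultures. On stretch Col4a1 was at 3870 and 6539 CPM in WT and 3997 and 4528 CPM in CAV1-/- MCs, and both CAV1-/- values lay between the WT values. Col4a2 followed with 2180 and 3639 CPM in WT and 2510 and 2571 CPM in CAV1-/- MCs. The static log2 fold changes were -0.67 for Col4a1 (SE 0.35, adjusted p = 0.726 by limma) and -0.63 for Col4a2 (SE 0.31, adjusted p = 0.698), and those on stretch were -0.24 and -0.15. Leaving out CAV1-/- replicate 1 gave -0.46 and -0.47 in static culture and -0.15 and -0.13 on stretch.

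The ratio Col4a1/Col4a2 was the most even of the 4 ratios, at 1.66 and 1.72 in static WT, 1.77 and 1.80 in stretched WT, 1.60 and 1.70 in static CAV1-/- and 1.59 and 1.76 in stretched CAV1-/- MCs. Between genotypes its log2 value differed by -0.04 in static culture (exact permutation p = 0.667) and by -0.09 on stretch (p = 0.33, exact permutation). Over the 8 libraries Col4a2 was the gene most like Col4a1 among the 10796 other genes with a mean of at least 5 CPM (Pearson r = 0.986 of log2 values). Next in likeness to Col4a1 were Etl4 (r = 0.972), Snx33 (0.970), Kansl1l (0.970) and Xpc (0.967). Of the other members Lamc1 was nearest to Col4a1 (r = 0.898, rank 142). These correlations describe 8 libraries from 4 animals that share depth and genotype.

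Perlecan lay close in both genotypes when static. Hspg2 (ENSMUSG00000028763, chromosome 4 from 137468769 to 137570630, plus strand) was at 3001 and 2382 CPM in static WT and 2818 and 2060 CPM in static CAV1-/- MCs. On stretch it was at 1246 and 1949 CPM in WT and 2518 and 2034 CPM in CAV1-/- MCs. The static groups overlapped and the stretched groups did not, with the CAV1-/- cultures higher. The log2 fold change was -0.15 (95% interval -0.89 to 0.59) in static and 0.54 (-0.20 to 1.28, adjusted p = 0.932 by limma) in stretched culture, and -0.38 and 0.38 without CAV1-/- replicate 1.

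**Figure D3:**
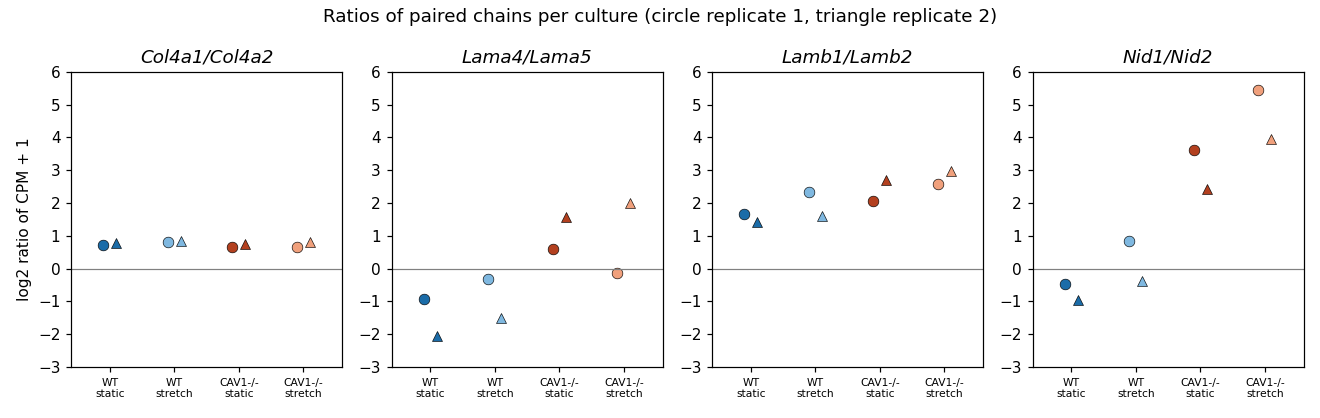
Log2 ratio of CPM + 1 (y axis, same scale in all panels) for 4 pairs of related chains in the 8 cultures by group (x axis), circles for replicate 1 and triangles for replicate 2. Col4a1/Col4a2 stays between 0.67 and 0.85, while Nid1/Nid2 runs from -0.94 in a static WT culture to 5.44 in a stretched CAV1-/- culture.

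Stretched and static cultures of the same animal were compared next, to ask what mechanical load did to the same genes. All 10 members were lower in the stretched culture of both WT animals, as were 33.9% of all genes. No member passed an adjusted p-value of 0.05 in WT (0.0% of all genes passed by limma, 2.27% had an unadjusted p under 0.05), and Hspg2 alone had an unadjusted p under 0.05. With the animal as a block, which pairs the 2 cultures of each mouse, 6 members (Lama4, Lama5, Lamb2, Lamc1, Nid2 and Hspg2) had an unadjusted p under 0.05 in WT, against 14.5% of all genes. The median log2 fold change of the members was -0.53 in WT, beside -0.02 for all genes. This median was -0.10 without the stretched culture of WT replicate 1, and Col4a1 and Col4a2 then turned to 0.12 and 0.04. The 2 WT animals differed in size: for Hspg2 the log2 difference, stretched minus static, was -1.27 in replicate 1 and -0.29 in replicate 2, and for Lamc1 it was -1.09 and -0.14.

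In CAV1-/- MCs 6 members were lower on stretch in both animals, 3 were higher in both (Col4a1, Col4a2 and Lamb1) and Nid1 was mixed. The share of all genes with these signs in CAV1-/- MCs was not counted. In CAV1-/- replicate 2 the log2 difference was only 0.005 for Col4a2, -0.018 for Lamc1 and -0.019 for Hspg2. The median log2 fold change was -0.16, beside 0.00 for all genes, and 0 members passed in CAV1-/- MCs by limma (0.0% of all genes with an adjusted p under 0.05). At an unadjusted p under 0.05 the count of members was 0, against 2.09% of all genes. With the animal as a block it was 2 (Lama4 and Nid2), against 13.3%. In that paired fit the lowest adjusted p-values of members were 0.167 for Lama5 in WT and 0.153 for Nid2 in CAV1-/- MCs.

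Over both genotypes, 6 of 10 members (Lama4, Lama5, Lamb2, Lamc1, Nid2 and Hspg2) were lower in the stretched culture of all 4 animals, as were 16.9% of all genes, and 0 members were higher in all 4, against 14.5%. Some of these differences were very small, such as -0.018 for Lamc1 and -0.019 for Hspg2 in CAV1-/- replicate 2. Nid2 showed the widest differences, with log2 values of -2.12 and -0.62 for WT replicates 1 and 2 and of -2.27 and -1.46 for CAV1-/- replicates 1 and 2. Its group log2 fold changes were -1.37 (SE 1.03) in WT and -1.86 (SE 1.03) in CAV1-/- MCs by the limma fit without the animal block. Lama5 followed in WT with -1.51 and -0.69, and was at -0.05 and -0.64 in the CAV1-/- animals. Since every stretched library was also deeper, the part of depth in these differences was not tested.

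**Figure D4:**
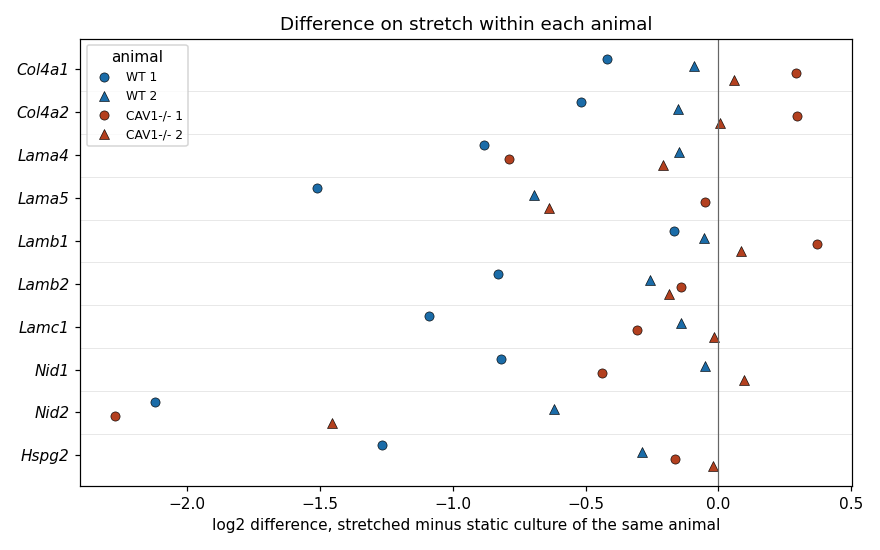
Log2 difference between the stretched and the static culture of the same animal (x axis) for the 10 members (y axis), blue for WT and red for CAV1-/-, circles for replicate 1 and triangles for replicate 2. All WT points lie below 0, while Col4a1, Col4a2 and Lamb1 have both CAV1-/- points above 0.

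The interaction, the stretch difference in CAV1-/- MCs minus that in WT MCs, tested whether the genotypes responded differently. It was positive for 9 of the 10 members (all but Nid2), although the value of Lama4, 0.02, fell just below 0 with median-of-ratios rescaling, and 52.6% of all genes were positive. The median over members was 0.40, beside 0.01 for all genes. With 1 library left out this median ran from 0.08 to 0.81. The lowest value came without the stretched culture of WT replicate 1, where 4 members were negative. The highest came without that of WT replicate 2, where 1 member was negative. No member had an adjusted p under 0.05 (0.0% of all genes did) or an unadjusted p under 0.05 (0.483% did) by limma. With the animal as a block 2 members, Col4a2 and Lama5, had an unadjusted p under 0.05, against 4.25% of all genes, and none an adjusted one. The widest positive values were 0.76 (SE 0.68) for Lama5 and 0.69 (SE 0.43) for Hspg2. Both were smaller than 2 SE of the limma fit without the block, which ignores that cultures share an animal. With the animal as a block the unadjusted p by limma was 0.0436 for Lama5 and 0.0660 for Hspg2 (adjusted p = 0.947 for each).

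Other genes of the basement membrane were described by 4 lists, of which no gene passed an adjusted p of 0.05 by limma in any comparison. By DESeq2 some did between genotypes, where 2.26% of all genes passed in static culture. On stretch 1.78% of all genes with an adjusted p passed. Of the other collagen IV and laminin chains 9 of 10 were measured, and 8 of them had lower means in static CAV1-/- than in static WT MCs (median log2 fold change -0.57, beside -0.01 for all genes). In this comparison 47.8% of all genes had higher means. Lama3, a laminin alpha chain of epithelia, was at 12.9 and 16.2 CPM in static WT MCs and at 1.40 to 2.81 CPM in the 4 CAV1-/- cultures, with 1.68 and 11.0 CPM in stretched WT MCs. By DESeq2 Lama3 passed in static culture (adjusted p = 0.00909), as 1 of 2 chains of this list called lower there. Lamc3, the gamma3 chain, was at 15.4 and 37.5 CPM in static WT and 0.494 and 6.99 CPM in static CAV1-/- MCs, and on stretch at 1.53 and 22.7 against 0.631 and 4.05 CPM.

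Of the other basement membrane components 15 of 17 were measured, 9 of them with lower means in static CAV1-/- MCs (median -0.27), where 47.8% of all genes had higher means. Hmcn1, the extracellular protein hemicentin-1, was at 139 and 80.4 CPM in static WT and 12.9 and 7.71 CPM in static CAV1-/- MCs, a log2 fold change of -3.28 (SE 0.47). On stretch it was at 24.6 and 56.2 CPM in WT and 4.95 and 6.68 CPM in CAV1-/- MCs. Both CAV1-/- values were below both WT values in each condition. By DESeq2 Hmcn1 passed in static culture (adjusted p = 3.24e-08) and on stretch (adjusted p = 2.22e-05), the only gene of this list to do so. Tinagl1 held 492 and 266 CPM in static WT and 170 and 129 CPM in static CAV1-/- MCs, and Smoc2, a matricellular protein of the SPARC family, 11.5 and 25.8 against 3.71 and 8.64 CPM.

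Of the 15 genes for folding, export and crosslinking of collagen IV 14 were measured. In static culture 13 of them had higher means in CAV1-/- than in WT MCs (median log2 fold change 0.13), as had 47.8% of all genes, while both collagen IV chains had lower means. On stretch 11 had higher means in WT (median 0.17, 46.8% of all genes), where the chains had lower means, and 13 in CAV1-/- MCs (median 0.13, 49.97% of all genes), where both chains also had higher means. Plod2, a lysyl hydroxylase, was at 327 and 159 CPM in static WT, 728 and 214 CPM in stretched WT, 506 and 319 CPM in static CAV1-/- and 773 and 498 CPM in stretched CAV1-/- MCs, higher on stretch in all 4 animals. P4ha2, a prolyl hydroxylase subunit, was at 153 and 98.5 CPM in static WT and 270 and 194 CPM in static CAV1-/- MCs. Sec23a, a subunit of the COPII coat that carries procollagen out of the endoplasmic reticulum, held 161 and 152 against 191 and 229 CPM. By DESeq2 1 gene of this list was called, with a higher level in stretched CAV1-/- than in stretched WT MCs.

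All 10 receptors for collagen IV and laminins were measured, 7 with lower means in static CAV1-/- MCs (median log2 fold change -0.66). Of all genes 47.8% had higher means there. By DESeq2 2 receptors were called lower and 1 higher in static CAV1-/- MCs, and 1 lower and 1 higher on stretch. The receptors named here all had lower static means. Itgb4, the integrin chain of hemidesmosomes, was at 19.4 and 11.7 CPM in static WT and 3.71 and 1.85 CPM in static CAV1-/- MCs. Bcam, a receptor for the laminin alpha5 chain, was at 86.7 and 51.0 CPM in static WT, 50.05 and 30.7 CPM in stretched WT, 30.2 and 18.0 CPM in static CAV1-/- and 17.6 and 8.54 CPM in stretched CAV1-/- MCs. All 4 CAV1-/- values of Bcam lay below all 4 WT values, as was the case for 5.88% of all genes. This also held for Itgb4, at 11.9 and 15.2 CPM in stretched WT and 5.87 and 1.31 CPM in stretched CAV1-/- MCs. Of the components above it held for Hmcn1 and Tinagl1. Itga3, the integrin alpha chain that pairs with beta1 to bind laminins, was at 476 and 308 CPM in static WT and 237 and 145 CPM in static CAV1-/- MCs.

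Markers of other cell types that make basement membrane were set beside these values. Of the endothelial markers 7 of 10 were measured, with a summed level of 55.9 to 121 CPM per library. Kdr (7.75 to 66.0 CPM) and Esam (15.3 to 47.0 CPM) made up most of this sum. Cdh5, an endothelial cadherin, was at 0.247 to 1.65 CPM. The 7 fibroblast markers summed to 9035 to 17760 CPM in the WT and 8398 to 20189 CPM in the CAV1-/- libraries, and the 6 of 7 pericyte and smooth muscle markers measured to 4234 to 7927 and 5571 to 10656 CPM. The fibroblast sum was mostly Col1a1 and Col3a1. Over both genotypes Pdgfra was at 19.3 to 264 CPM in replicate 1 and 490 to 706 CPM in replicate 2 cultures. Dcn was at 42.6 to 515 against 713 to 861 CPM, whereas Col3a1 overlapped between the replicate numbers. The 2 of 5 skeletal muscle markers measured, mostly Acta1, summed to 11.4 to 1233 CPM, and 3 of 5 adipocyte markers to 4.43 to 31.3 CPM, with Plin1 at 0 in 4 libraries. The summed mesothelial markers were lower in all 4 CAV1-/- libraries, as were Lama5 and the Nid2 values within each condition. Not every marker separated the genotypes. Wt1 was at 94.9 to 133 CPM in the WT and 74.9 to 138 CPM in the CAV1-/- libraries, and Krt19 overlapped too. Krt7, a keratin of simple epithelia, was at 140 to 525 CPM in the WT and 10.2 to 31.9 CPM in the CAV1-/- libraries. The part of the mesothelial and leukocyte markers in the genotype differences was not tested.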

How the data were processed

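RNA of 8 cultures of mouse MCs (4 groups of 2 cultures) was sequenced as 61-base single reads from unstranded polyA libraries on a HiSeq2500. The authors trimmed reads with Cutadapt, estimated reads per gene with RSEM against the GRCm38 transcriptome, normalized them by the TMM method of edgeR and deposited the signal as TMM-normalized CPM for 13687 genes. Per the labels, CASAVA was also used. Values are whole multiples of 1 read (100% whole within 0.01), which gave the recovered reads.

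Genes were tested if 2 or more libraries held a value of 1 or more (13665 genes). Their log2(value + 1) was fitted by limma 3.58.1 under R 4.3.3, using an intensity trend, 1 mean per group and Benjamini-Hochberg adjustment over all genes tested, called at an adjusted p under 0.05. The members, the gene lists and the tests were chosen with earlier results of these data known. Named genes were the members, the genes of the 4 lists that passed or otherwise at most 3 per list with the largest static genotype difference and a mean of at least 5, the 5 genes most like Col4a1, Cav1, and markers by list. Of these, 1 gene is not reported here. Cdh5, Kdr, Esam, Krt7, Wt1, Krt19, Pdgfra, Dcn, Col1a1, Col3a1, Acta1 and Plin1 were singled out after their values were seen. Ratios were tested by exact permutation. Alternatives were pseudocounts of 0.1 and 5 (0 for ratios), no filter, a mean of at least 5, median-of-ratios rescaling, a replicate block, edgeR (version 4.0.16), DESeq2 (version 1.42.0), 4 libraries only and libraries left out. The same animal gave a static and a stretched culture, and deviations of these cultures correlated at r = 0.703 in WT and 0.850 in CAV1-/- MCs. With 2 animals per genotype p-values measure the spread between these cultures. The fits were tested on simulated data. Gene positions and exon lengths are from GENCODE M21, with 13604 identifiers found, and promoter windows from RefSeq (GRCm38.p6). Lama4, Lamc1 and Nid2 were not in the promoter table used.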

Additional observations from a re-analysis of the deposited data

Results flagged for a closer look

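For 3 members both WT animals were lower and both CAV1-/- animals higher in the stretched than in the static culture. The share of all genes that meet this rule was not counted. Of the 3, Col4a1 and Col4a2 followed each other closely (Pearson r = 0.986), so they are not separate observations. The difference of the stretch response, CAV1-/- minus WT on the log2 scale, was 0.43 for Col4a1, 0.48 for Col4a2 and 0.34 for Lamb1. By the limma interaction term none of these differences passed (adjusted p = 1.00 for each), and with the animal as a block the adjusted p-value was 0.947 for each. Per animal the log2 difference of Col4a1 was -0.42 and -0.09 in WT and 0.29 and 0.06 in CAV1-/- MCs, that of Col4a2 was -0.52 and -0.15 against 0.30 and 0.01, and that of Lamb1 was -0.17 and -0.05 against 0.37 and 0.08. In each of the 3 genes replicate 1 of both genotypes moved farther from 0 than replicate 2.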

How the results depend on the processing

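Every member had at least 412 reads in each library, and the 2 cultures per group limited the precision of each difference. No member passed with pseudocounts of 0.1 and 5, without a filter, with a mean of at least 5, with rescaling, with only the 4 libraries of a comparison, by edgeR, or with any library left out. Nid2 passed with the replicate number as a block (adjusted p = 0.0449 static, 0.0485 stretched), a number that different animals of the 2 genotypes share, and Nid2 on stretch and Lama5 in static culture passed by DESeq2. For the stretch comparisons the block was the animal, and it changed no member's call. Cultures of the same number in both genotypes deviated together at r = 0.522 (static) and 0.484 (stretched), a hint from 2 numbers that the labels do not explain. The cause of these differences was not tested. The 16 ratio differences moved by less than 1 SD with a pseudocount of 0.

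The number of all genes called was 3 in WT and 7 in CAV1-/- MCs on stretch by DESeq2, where limma called 0 in each, and 1 in CAV1-/- MCs with the animal as a block. Between genotypes in static culture limma called 10 genes, the block 246, edgeR 2, DESeq2 309 and the fit of 4 libraries only 0. In stretched culture limma called 8, the block 110, DESeq2 238 and the fit of 4 libraries only 0. With libraries left out the counts were 0 to 8 in static and 0 to 7 in stretched culture.

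Rescaling by median-of-ratios took the interaction of Lama4 to -0.0024, and among the settings that kept all libraries no other member value changed sign. With 1 animal or library left out, log2 fold changes of members that passed no test changed sign in 21 of 50 results. For stretch in WT the values ran from -0.63 to 0.12 for Col4a1 and from -0.70 to 0.035 for Col4a2. For stretch in CAV1-/- MCs they ran from -0.032 to 0.38 for Col4a1, -0.012 to 0.31 for Col4a2, -0.93 to 0.24 for Lama5, -0.47 to 0.15 for Lamc1, -0.68 to 0.34 for Nid1 and -0.32 to 0.14 for Hspg2. For genotype in static culture they ran from -0.078 to 0.85 for Lama4, -0.13 to 0.23 for Lamb1 and -0.38 to 0.076 for Hspg2. For genotype on stretch they ran from -0.62 to 0.14 for Col4a1, -0.52 to 0.22 for Col4a2, -0.081 to 0.89 for Lama4, -0.85 to 0.0040 for Lamb2 and -1.08 to 0.0037 for Lamc1. For the interaction they ran from -0.47 to 0.50 for Lama4, -0.048 to 0.81 for Lamb2, -0.091 to 0.99 for Lamc1, -0.25 to 0.77 for Nid1 and -1.73 to 0.75 for Nid2. The other 29 results kept their sign, among them the genotype differences of Nid2 (-3.85 to -2.17 static, -4.75 to -2.26 stretched) and of Lama5 (-2.48 to -1.91 and -2.02 to -0.85). Where a group was left with 1 culture, that culture was assumed to vary like the other groups.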
